A study of Mus musculus with 2 samples.

Results

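Type 1 dendritic cells of mouse pancreatic tumors were examined in single-cell RNA sequencing data, as the barcodes chosen by their own transcripts of Xcr1, Clec9a and Cadm1. A barcode was taken when H2-Aa, H2-Ab1 and H2-Eb1, the genes of the MHC class II chains, made up at least 0.8% of its unique molecular identifiers (UMIs, counts of captured RNA molecules) and Xcr1, Clec9a and Cadm1 together had at least 2 UMIs. It was left out with more than 1 UMI of the B cell genes Cd79a, Cd79b and Ms4a1, with more than 1 UMI of the T cell genes Cd3e and Cd3g, or when the macrophage complement genes C1qa, C1qb and C1qc reached 0.1% of its UMIs. Of the 14022 barcodes that reached 1000 UMIs and 200 genes with no more than 20% of their UMIs from mitochondria, 53 met this rule, 13 of 6904 in the PBS library and 40 of 7118 in the cmExoaCD11b library. Because the rule uses measured values, the levels of its own genes are given as descriptions.

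Both libraries came from male C57BL/6J mice of 5 to 6 weeks with orthotopic pancreatic tumors of K210 cells, a line carrying, among other alleles, Trp53 fl/fl and Pdx1-Cre. The mice received PBS or cmExoaCD11b, exosomes of mouse embryonic fibroblasts, by intraperitoneal injection every 3 days from day 7. These exosomes were loaded with the mRNA of IL-12 and with cGAMP (5 µg per mouse), which activates STING, and carried antibodies to CD11b on their surface. Immune cells were taken 48 h after treatment, and each library pooled the cells of 3 mice, so there was 1 library per treatment, no replicate and no test of a treatment effect. All intervals below are 95% exact intervals and cover counting error only, and a difference between the libraries cannot be told apart from a difference between 2 pools of animals or 2 library preparations.

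Type 1 dendritic cells are the subset of conventional dendritic cells that takes up dead cells and presents their antigens to CD8+ T cells on MHC class I, a process called cross-presentation. They depend on the transcription factors Irf8 and Batf3, carry the chemokine receptor Xcr1 and the dead-cell receptor Clec9a, and are known in tumors as a source of IL-12. Type I interferon, which STING signaling induces, is known to act on these cells and to switch on a large group of antiviral genes.

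The rule was met by more barcodes in the cmExoaCD11b library. Type 1 dendritic cells made up 0.188% (Clopper-Pearson interval 0.1 to 0.322%) of the kept PBS barcodes and 0.562% (0.402 to 0.764%) of those in cmExoaCD11b, a ratio of 2.98 (1.56 to 6.08). Among all barcodes that passed the class II, B, T and C1q limits they were 13 of 60 in PBS (21.7%, 12.1 to 34.2%) and 40 of 113 in cmExoaCD11b (35.4%, 26.6 to 45.0%). T cells, taken as barcodes with at least 2 UMIs of Cd3e and Cd3g, went from 6.56% to 13.3% of the kept barcodes and C1q-high barcodes, the macrophage side of the data, from 2.19% to 0.492%, and each of these shares also enters the total over which the type 1 share was taken. The C1q limit alone left out 10 PBS and 3 cmExoaCD11b barcodes, 9 and 3 of them through Cadm1 without Xcr1 or Clec9a, and without this limit the ratio of the shares was 1.81. Thinning every barcode to 1000 UMIs and asking for at least 1 type 1 UMI gave 0.0869% and 0.211%.

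Part of the cells lay near the edges of the rule. With exactly 2 UMIs of the 3 genes there was 1 cell in PBS and there were 7 in cmExoaCD11b, and just outside, with 1 UMI, there were 2 and 8. Of the cells taken, 6 in PBS and 10 in cmExoaCD11b had class II transcripts between 0.8% and 1.6% of their UMIs. Between 0.4% and 0.8%, just below the limit, 3 and 5 barcodes had at least 2 type 1 UMIs. A class II limit of 1.6% would leave 7 of the 13 PBS cells. The same barcode was kept in both libraries 15 times, and 1 of these belonged to a type 1 dendritic cell.

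**Figure D1:**
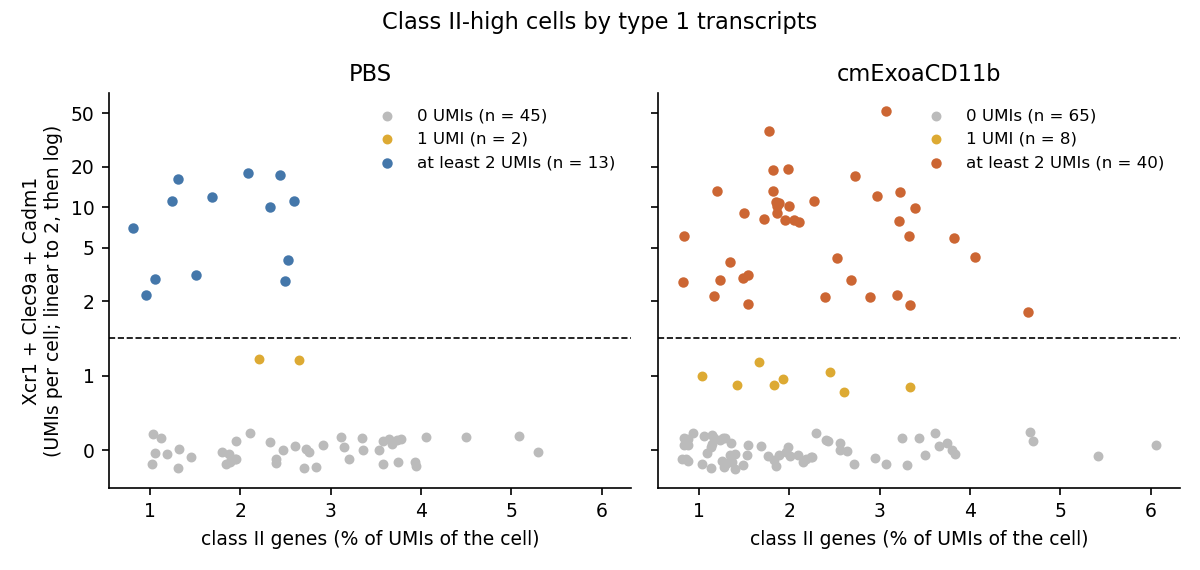
Each point is a barcode that passed the class II, B, T and C1q limits, placed by the class II share of its UMIs (x axis, percent) and its summed UMIs of Xcr1, Clec9a and Cadm1 (y axis, linear to 2 and then logarithmic, points spread slightly), with PBS on the left and cmExoaCD11b on the right. The dashed line parts the 13 and 40 cells taken from the 2 and 8 with 1 UMI and the 45 and 65 with none.

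The 53 cells differed in which of the 3 genes they showed. All 3 were detected in 21 cells, Xcr1 with Clec9a in 8, Clec9a with Cadm1 in 7, Clec9a alone in 13 and Cadm1 alone in 4. Depth was wide: the PBS cells held 3731 to 34213 UMIs with a median of 15439, and the cmExoaCD11b cells 1385 to 34975 with a median of 18474. The ranges overlapped almost fully, and the summed UMIs were 209580 in PBS and 709106 in cmExoaCD11b. Mitochondrial UMIs had a median of 1.75% in PBS and 1.2% in cmExoaCD11b. The upper quartiles were farther apart, at 5.77% and 1.83%, and the highest values were 9.38% and 15.8%.

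Xcr1, which binds the chemokine Xcl1 and guides these cells towards T and natural killer cells, had 26 UMIs in 9 of 13 PBS cells and 80 UMIs in 20 of 40 cmExoaCD11b cells. Per 1000000 UMIs of the type 1 cells (counts per 1000000, CPM), that was 124.1 (81.0 to 181.8) and 112.8 (89.5 to 140.4). The type 1 cells held 76.5% of all Xcr1 UMIs of the kept PBS barcodes and 81.6% in cmExoaCD11b. Clec9a, a receptor for actin exposed on dead cells, was at 190.9 CPM in PBS and 242.6 CPM in cmExoaCD11b, with 47.6% and 65.6% of its UMIs in the type 1 cells. Cadm1, an adhesion molecule, was at 243.3 and 173.5 CPM, but only 7.36% and 25.9% of its UMIs lay in these cells and C1q-high barcodes carried it at 39.6 and 87.2 CPM. Cadm1 was thus the least specific gene of the rule, and the 4 cells with Cadm1 alone rest on it.

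Genes the rule did not use set the same cells apart from class II-high barcodes with none of the 3 transcripts, 45 in PBS and 65 in cmExoaCD11b, with medians of 14456 and 11686 UMIs. Irf8, the lineage factor of type 1 dendritic cells, was at 1402.8 and 1329.8 CPM in the type 1 cells against 91.1 and 104.9 CPM in the other class II-high cells. It was detected in 13 of 13 and 38 of 40 type 1 cells, against 42.2% and 38.5% of the other class II-high cells and 17.0% and 15.1% of T cells, whose median depths were 5773 and 4784 UMIs. After thinning to 1000 UMIs, the shares with Irf8 were 84.6% and 65.0% of type 1 cells against 3.09% and 3.06% of T cells. Naaa, a lysosomal acid amidase, was at 854.1 and 1133.8 CPM against 106.9 and 95.7 CPM, and was found in all 53 type 1 cells. Tlr3, the endosomal sensor of double-stranded RNA, was at 76.3 and 77.6 CPM against 1.57 and 2.31 CPM. Rab7b, a GTPase of late endosomes, was at 90.7 and 173.5 CPM against 1.57 and 2.31 CPM, but C1q-high barcodes had 76.4 and 68.5 CPM.

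The levels of genes outside the rule also followed the number of type 1 UMIs, with steps at different places. Over both libraries Irf8 was at 99.1 CPM in class II-high cells with 0 type 1 UMIs, 163.6 with 1, 1040.0 with 2 to 3, and 1461.1 with 4 or more. Naaa was at 100.4, 576.1, 696.0 and 1209.8 CPM in the same order. As a ratio, the main step in Irf8 thus lay between 1 and 2 UMIs and that in Naaa between 0 and 1. As a difference in CPM, the last step of Naaa was the largest. Within the libraries the 10 cells with 1 UMI did not keep this order throughout: in the 2 PBS cells Irf8 was at 86.5 CPM, below the 91.1 CPM with 0 UMIs, and Naaa at 778.1 CPM, above the 607.2 CPM with 2 to 3 UMIs, whereas in the 8 cmExoaCD11b cells they were at 201.4 and 477.1 CPM, between their neighbors. Genes of the other class II-high cells ran the other way, though not at every step. Clec10a, a lectin of type 2 dendritic cells, was at 221.5 CPM with 0 UMIs, 49.8 with 1, 0 with 2 to 3 and 22.4 with 4 or more. Creb5, a transcription factor of the CREB family, was at 318.6, 320.1, 12 and 2.99 CPM in the same order. With 1 type 1 UMI, Creb5 was at 64.8 CPM in the 2 PBS cells and 445.3 CPM in the 8 cmExoaCD11b cells.

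Of 5946 genes with at least 30 UMIs in either class, 177 were at least 2-fold higher in type 1 cells than in the other class II-high cells within both libraries and 377 were at least 2-fold lower. The 15 with at least 50 UMIs in type 1 cells that led by the smaller of the within-library ratios, with no limit on the share of UMIs in 1 cell, were Il12b, Cadm1, Clec9a, Xcr1, Rab7b, Tlr3, Irf8, Bcl2l14, Snx22, Plpp1, Laptm4b, Agpat3, Ppt1, Gcsam and Pdia5. The places of Cadm1, Clec9a and Xcr1 were fixed by the rule. Il12b, the p40 chain of IL-12, was held by 4 of the 53 type 1 cells, and its place rests on them, with all 82 PBS UMIs in 1 cell. It had 0 UMIs in the 110 other class II-high cells and in the C1q-high, B and T barcodes, but 1 UMI in 1 PBS and 4 UMIs in 3 cmExoaCD11b neutrophil barcodes, of 3779 and 4077. Among the 10 lowest were Creb5, Clec10a, the chemokine gene Ccl2 (9.54 and 1.41 CPM in type 1 cells), the fatty acid carrier Fabp5 (38.2 and 21.2 CPM) and the lipid transfer gene Pltp (0 and 5.64 CPM). Markers of other classes were present to different degrees. Cd79a, Cd3e and Cd3g were at 0 UMIs, but the rule limits them. Of the defining markers that the rule did not use, Pax5 of B cells, Cd4 of T cells, Ncr1 and Klrb1c of natural killer cells, Krt8 and Krt19 of epithelium and Mertk and Ms4a7 of macrophages were at 0. Other markers of these classes were detected. T cell markers summed to 2 and 17 UMIs, with Cd8a in 0 of 13 and 3 of 40 cells. Natural killer cell markers summed to 0 and 1 UMI. Epithelial and stromal markers summed to 14 and 20 UMIs, with Pecam1 holding the most. Ighm, the heavy chain of IgM, was found in 8 of 13 and 23 of 40 cells at 114.5 and 97.3 CPM. Of 11 macrophage markers 5 were detected in PBS and 9 in cmExoaCD11b, at 71.6 and 135.4 CPM in sum with Apoe holding the most UMIs, against 35079.6 and 23693.3 CPM in C1q-high barcodes. Monocyte markers summed to 2490.7 and 2738.7 CPM, with Plac8 holding the most UMIs. Of 10 type 2 dendritic cell markers 9 were detected in PBS and 7 in cmExoaCD11b. They summed to 477.1 and 277.8 CPM, against 1946.9 and 1993.8 CPM in the other class II-high cells. Of 15 further type 1 markers that the rule did not use, 14 were at least 2-fold higher than in the other class II-high cells within both libraries, and Itgae, the CD103 chain, was not. As a group the cells thus carried the transcripts that the label names, and the 4 cells with Cadm1 alone rest on the least specific gene.

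**Figure D2:**
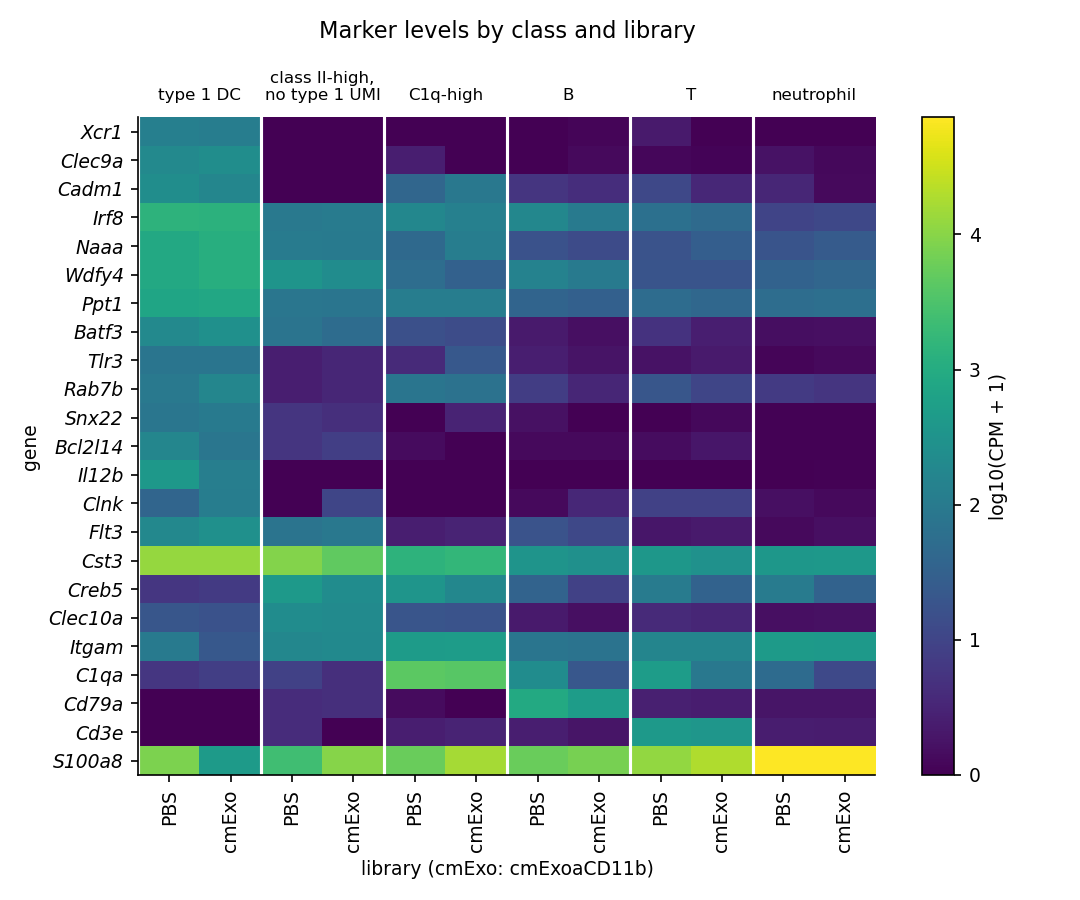
Color gives log10(CPM + 1) of each gene (rows) in the summed UMIs of each class and library (columns; PBS left and cmExoaCD11b right in each pair). Irf8, Naaa, Tlr3 and Snx22 are brightest in the type 1 dendritic cell columns, Creb5, Clec10a and Itgam are darker there than in the other class II-high columns, and S100a8 is brighter in PBS than in cmExoaCD11b type 1 cells.

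Neutrophil transcripts moved with the library in these cells and bear on what follows. All 10 neutrophil markers were detected, and they summed to 28609.6 CPM in PBS and 3016.5 CPM in cmExoaCD11b, with S100a9, a calcium-binding protein of granulocytes, holding the most UMIs. S100a8 and S100a9 took over 1% of the UMIs in 3 cells, PBS cell 9 at 1.89%, PBS cell 12 at 13.4% and cmExoaCD11b cell 32 at 3.57% (cells are numbered by UMIs within each library). In the other 50 cells they took less than 1%. Over all 13 PBS and 40 cmExoaCD11b cells the medians were 0.0770% and 0.0730%. Without the 3 cells, the median log2 ratio of the neutrophil markers with enough UMIs, 7 with all cells, moved from -3.28 to 0.18. Of the 72 genes named in the comparison of libraries and past 2-fold, 56 of the 69 that still had enough UMIs were past it without the 3 cells. Scrublet, a caller of barcodes that hold more than 1 cell, was not used to remove cells, and taking out its highest scores would have removed 3 of the 13 PBS and 0 of the 40 cmExoaCD11b cells.

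Between the libraries, 4333 genes had at least 30 UMIs in the type 1 cells, and a gene is called higher or lower here when its CPM ratio, cmExoaCD11b over PBS, was at least 2 or at most 0.5. Of these genes 441 (10.2%) were higher and 222 (5.12%) were lower in cmExoaCD11b, with a median log2 ratio of 0.12, and without the 3 cells rich in neutrophil transcripts 460 were higher and 177 lower. Interferon-stimulated genes stood at the upper end: 26 of the 31 members with enough UMIs (83.9%), of 40 listed, were higher and 0 were lower, with a median log2 ratio of 1.66 and a range of 0.18 to 4.98. Their summed UMIs were 934 in PBS and 8577 in cmExoaCD11b, or 4456.5 and 12095.5 CPM, a ratio of 2.71 (2.54 to 2.91). Without the 3 cells, 25 members were higher and the median was 1.78.

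**Figure D3:**
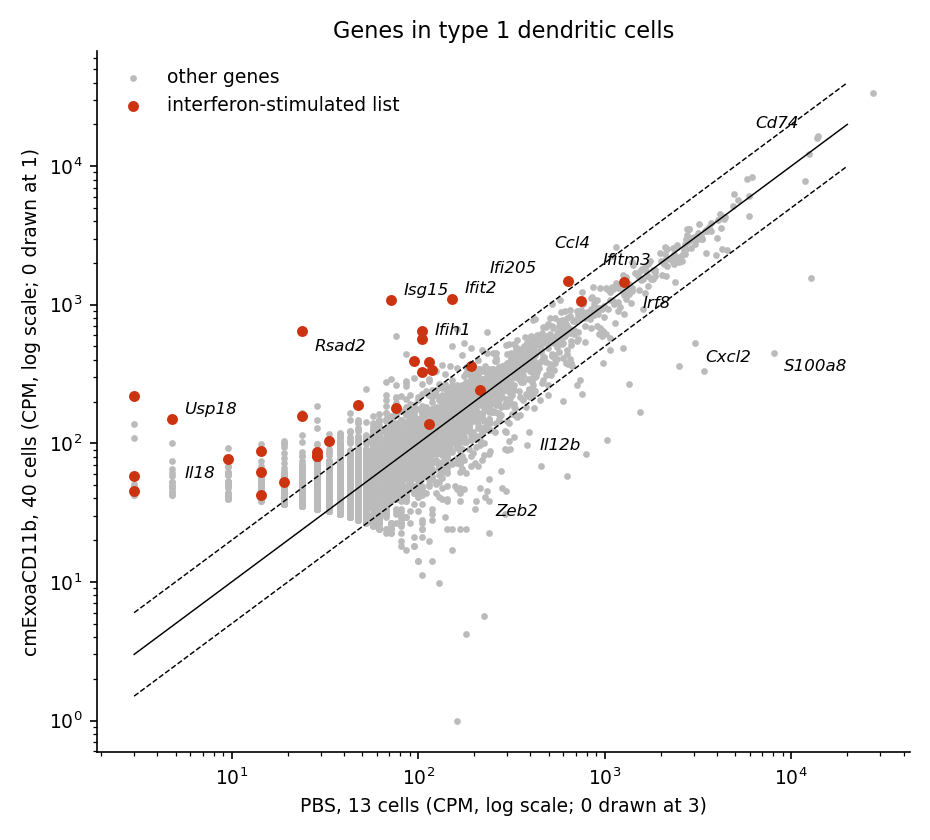
Each point is 1 of the 4333 genes, with its CPM in the 13 PBS cells (x axis) and in the 40 cmExoaCD11b cells (y axis), both logarithmic, where genes at 0 in PBS are drawn at 3 and genes at 0 in cmExoaCD11b at 1. Red points are the 31 interferon-stimulated genes, the solid line marks equal CPM and the dashed lines a 2-fold difference; 26 red points lie above the upper dashed line and 0 below the lower one.

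Among the members with the largest ratios were Isg15 and its protease. Isg15, a ubiquitin-like modifier, had 15 UMIs in 6 of 13 PBS cells and 773 UMIs in 34 of 40 cmExoaCD11b cells, 71.6 and 1090.1 CPM, a ratio of 15.2 (9.18 to 27.3), which was 3.47 without the C1q limit. Per cell it ranged from 0 to 268.0 CPM in PBS with a median of 0, and from 0 to 8664.3 CPM in cmExoaCD11b with a median of 466.0. Most cmExoaCD11b cells with Isg15 thus lay above every PBS cell, while 6 cells had none. Usp18, which removes Isg15 from proteins and damps interferon receptor signaling, had 1 UMI in 1 PBS cell and 107 UMIs in 27 cmExoaCD11b cells, a ratio of 31.6 with an interval of 5.56 to 1260.6. Thinned to 1000 UMIs, Isg15 was detected in 7.69% of PBS and 50% of cmExoaCD11b type 1 cells, against 46.2% and 85% unthinned.

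Other members rested on fewer cells. Rsad2, the antiviral enzyme viperin, had 5 and 462 UMIs, a ratio of 27.3 (11.6 to 84.5), but 77.1% of the cmExoaCD11b UMIs came from 2 cells, with 205 in cell 9 and 151 in cell 40. The ratio of Rsad2 was 4.82 (1.56 to 24.1, over 3 PBS UMIs) in cells with both Xcr1 and Clec9a. It was 36.8 (12.5 to 179.0, over 3 PBS UMIs) without the 3 cells rich in neutrophil transcripts. Ifit1, which binds viral RNA, had 0 UMIs in PBS and 155 in 9 cmExoaCD11b cells, at least 15.3-fold higher when the PBS library is set at 3 UMIs. This bound was 12.3 without the 3 cells rich in neutrophil transcripts, and without the C1q limit, where PBS cells with Ifit1 enter, the ratio was 3.08. Ifit2 of the same family had 32 and 774 UMIs, a ratio of 7.15 (5.02 to 10.5), and 30 of the 32 PBS UMIs lay in 1 cell. Its ratio was 2.41 in cells with both Xcr1 and Clec9a and 42.3 (11.6 to 350.6, over 2 PBS UMIs) with mature and cycling cells left out. Slfn5, of the Schlafen family, was spread more evenly, with 22 UMIs in 7 PBS cells and 401 in 33 cmExoaCD11b cells and a ratio of 5.39. Without the 2 cmExoaCD11b cells with the largest share of interferon-list UMIs (cells 9 and 1, a choice made after seeing the data), all 72 named genes that had been past 2-fold were still past it. Cell 1 held only 1385 UMIs, with 0 of Rsad2, Ifit2 and Ifih1, and cell 40, with 151, 139 and 106, stayed in. This choice thus does not show how the ratios depend on cell 40.

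The interferon list held sensors and regulators as well. Ifih1, a cytosolic sensor of double-stranded RNA, had 22 and 459 UMIs and a ratio of 6.17, and 11 of the PBS UMIs lay in PBS cell 12, the richest in S100a8 and S100a9. The ratio of Ifih1 was 11 without the 3 cells rich in neutrophil transcripts, 3.48 without the C1q limit and 37.2 (10.2 to 308.9, over 2 PBS UMIs) with mature and cycling cells left out. Irf7, which amplifies type I interferon, had 20 and 278 UMIs and a ratio of 4.11. Ifi203 and Ifi47 were at 23.9 and 157.9 CPM and at 9.54 and 77.6 CPM. Bst2, a tether of budding virus, was at 119.3 and 335.6 CPM, a ratio of 2.81, and of 1.93 without the C1q limit. Among the 5 members under 2-fold were Ifitm3 (1264.4 and 1463.8 CPM), Ly6e (749.1 and 1063.3 CPM), Zbp1 (114.5 and 136.8 CPM) and Sp100 (190.9 and 363.8 CPM). Ifitm3, with the most UMIs of the list, was thus among the least different. Ifi203 and Ifi205 belong to a family of similar genes, as do Hspa1a and Hspa1b below, and their counts are uncertain where reads fit more than 1 of them.

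Promoter sequence is shown for 4 of the higher members because their shared letters mark the binding element of interferon-activated factors, GAAA, any 2 bases and GAAA again, read on either strand (TTTC, any 2 bases and TTTC on the other), with overlapping matches allowed. RefSeq promoters (mouse build GRCm38.p6) were found for 25 of the 31 genes, and of their 29 promoters 11 (37.9%) held it within 250 bases before the start, against 978 of all 32851 promoters (2.98%). Capitals mark the match, each line is read 5′ to 3′ along the gene, and a match describes the letters and is neither a binding site nor a cause.
Rsad2, chr12:26456548-26456587, minus strand: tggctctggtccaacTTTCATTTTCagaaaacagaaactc
Ifit1, chr19:34640770-34640828, plus strand: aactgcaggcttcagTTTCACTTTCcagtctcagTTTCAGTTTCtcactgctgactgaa
Isg15, chr4:156200860-156200911, minus strand: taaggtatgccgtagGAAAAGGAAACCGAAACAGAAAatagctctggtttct
Ifi203, chr1:173942503-173942542, minus strand: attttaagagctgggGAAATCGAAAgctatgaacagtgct
In Isg15 the 3 matches overlap and begin between 78 and 66 bases before the start, in Ifit1 the 2 matches stand apart, and in Ifi203 the match begins 35 bases before the start.

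The share of a cell's UMIs taken by the interferon list varied from cell to cell. In PBS it ran from 0.239% to 1.22% with a median of 0.423%, and in cmExoaCD11b from 0.119% to 9.81% with a median of 0.881%. The groups overlapped, yet 32 of 40 cmExoaCD11b cells were above 0.5% against 5 of 13 PBS cells, and 17 of 40 (42.5%, 27.0 to 59.1%) were above 1% against 1 of 13 (7.69%, 0.195 to 36.0%). Cell 9 of cmExoaCD11b, at 9.81%, stood far above the rest, and 6 cmExoaCD11b cells and 0 PBS cells passed 2%. After thinning to 1000 UMIs the medians were 0.6% and 1%.

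**Figure D4:**
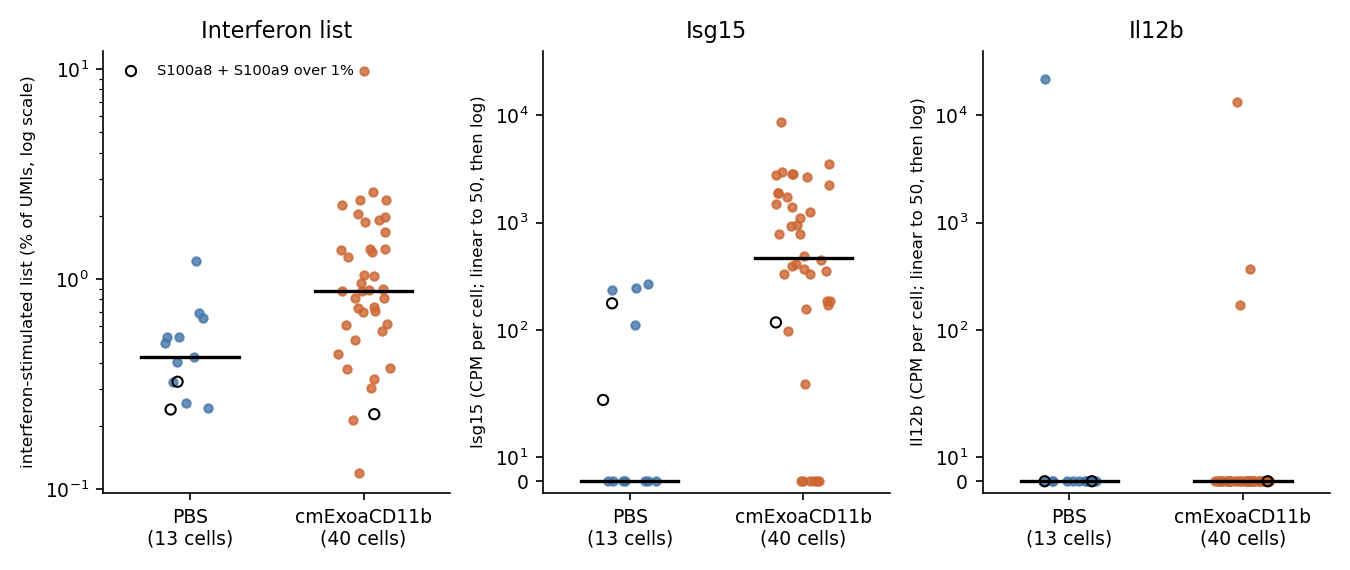
Each point is a type 1 dendritic cell, 13 from PBS and 40 from cmExoaCD11b, with the share of its UMIs in the interferon list (left, percent, logarithmic), its Isg15 level (middle, CPM) and its Il12b level (right, CPM; both linear to 50 and then logarithmic). Bars are medians and open circles the 3 cells with S100a8 and S100a9 over 1%; the Isg15 median is 0 in PBS and 466.0 in cmExoaCD11b, and 1 PBS and 3 cmExoaCD11b cells hold Il12b.

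The same list was higher in the cmExoaCD11b library in other classes of the tumor too. Its summed CPM had a ratio of 1.73 (1.68 to 1.78) in the other class II-high cells, 2.43 in C1q-high, 1.86 in T, 2.20 in neutrophil and 1.31 in B barcodes, beside 2.71 in type 1 cells. The median log2 ratios over the members were 1.37, 1.82, 1.25, 1.5 and 0.46 in that order, beside 1.66. The difference between type 1 cells and the other classes was not tested. In levels, the other class II-high cells carried more of the list than type 1 cells in either library, 9769.0 CPM in PBS and 16868.5 CPM in cmExoaCD11b.

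Of the cytokines, Il12b and Ifnb1 were held by few cells. All 82 Il12b UMIs of PBS lay in PBS cell 1, whereas the 86 of cmExoaCD11b lay in cells 5 (72 UMIs), 40 (13 UMIs) and 6 (1 UMI), so the summed level of 391.3 and 121.3 CPM compares 1 cell with 3. PBS cell 1 and cmExoaCD11b cell 5 had 9.38% and 11.4% mitochondrial UMIs, and cells 40 and 6 had 1.45% and 2.75%. Il12a, which encodes the p35 partner chain of IL-12, had 0 UMIs in both libraries. The gene ID that the paper gives for the loaded mouse IL-12 plasmid is that of Il12a, not Il12b. Uptake of the loaded mRNA by these cells was not tested. Il18, an inducer of interferon-gamma, had 1 UMI in 1 PBS cell and 53 UMIs in 19 cmExoaCD11b cells, a ratio of 15.7 with an interval of 2.69 to 630.2. Ifnb1, the gene of interferon beta, had 1 UMI in PBS and 32 in 7 cmExoaCD11b cells, 18 of them in 1 cell, a ratio of 9.46 with an interval of 1.58 to 385.1. The PBS UMI lay in 1 of the 3 cells rich in neutrophil transcripts, and without those cells Ifnb1 was at 0 in PBS and at least 2.55-fold higher. Il1b, the inflammatory cytokine, was found in 9 of 13 PBS and 23 of 40 cmExoaCD11b cells. It was at 758.7 and 228.5 CPM, a ratio of 0.301, and 0.458 without the 3 cells rich in neutrophil transcripts. Tnf was at 33.4 and 76.2 CPM (7 and 54 UMIs), a ratio of 2.28, which was 12.2 (2.09 to 490.5, over 1 PBS UMI) without those 3 cells and 0.544 without the C1q limit.

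Among the chemokines, which recruit other leukocytes, 2 of 9 members were higher (22.2%, beside 10.2% of all genes) and 3 lower (33.3%, beside 5.12%), with a median log2 ratio of 0.20, and of 0.89 without the 3 cells rich in neutrophil transcripts. Ccl4, a chemoattractant of T cells and monocytes, was at 1097.4 and 2235.2 CPM, in 10 of 13 and 29 of 40 cells, and its relative Ccl3 at 66.8 and 224.2 CPM with 68.6% of the cmExoaCD11b UMIs in 1 cell, but in cells with both Xcr1 and Clec9a their ratios were 0.931 and 0.631. Cxcl2, which attracts neutrophils, was at 3058.5 and 528.8 CPM, but 604 of the 641 PBS UMIs came from PBS cell 9, 1 of the cells rich in S100a8 and S100a9, and without those cells its ratio was 2.97 in place of 0.173. Ccl17 had 32 UMIs in 3 PBS cells and 17 in 3 cmExoaCD11b cells. The Cxcr3 ligands Cxcl9 and Cxcl10, which draw effector T cells, were at 410.3 and 299.0 CPM and at 114.5 and 224.2 CPM. Without the 3 cells rich in neutrophil transcripts the ratio of Cxcl10 was 19 (5.17 to 158.2, over 2 PBS UMIs) in place of 1.96, and without the C1q limit 0.916. For Cxcl9, 84 of the 86 PBS UMIs lay in 1 cell, whereas the 212 of cmExoaCD11b were spread over 13.

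Of 22 MHC class I pathway genes 2 (9.09%, beside 10.2% of all genes) were higher, Tapbpl (3 and 29 UMIs) and H2-T22 (8 and 69 UMIs), and 0 were lower, and without the C1q limit H2-T22 had a ratio of 1.96. The list had a median log2 ratio of 0.26 beside 0.12 over all genes. B2m, the common class I light chain, was at 1293.1 and 1578.0 CPM, and H2-K1 at 839.8 and 926.5 CPM. Of 11 class II pathway genes 0 passed 2-fold, with a median of 0.36: Cd74, the invariant chain, was at 13880.1 and 16495.4 CPM, and Ctss, the protease that trims it, at 510.5 and 803.8 CPM, although without the C1q limit the ratio of Ctss was 0.428 in place of 1.57. The class II list as a whole had a summed ratio of 1.28 (1.24 to 1.31) in type 1 cells and 0.758 (0.747 to 0.770) in the other class II-high cells, so its level was 32956.4 against 53667.5 CPM in PBS and 42040.3 against 40692.8 CPM in cmExoaCD11b. Its 3 chain genes are in the rule for both classes.

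Of 20 genes of antigen uptake and cross-presentation, with Clec9a of the rule among them, 0 were higher and 2 lower (10%, beside 5.12% of all genes). The median log2 ratio of the list was 0.14. The lower ones included Cybb, a subunit of the NADPH oxidase, which slows antigen breakdown in phagosomes. Cybb was at 238.6 and 38.1 CPM, with 39 of its 50 PBS UMIs in PBS cell 12, and without the 3 cells rich in neutrophil transcripts its ratio was 0.478 in place of 0.16. With mature and cycling cells left out the ratio of Cybb was 0.612, no longer past 2-fold. Wdfy4, which these cells need for cross-presentation of cell-bound antigen, was at 849.3 and 1118.3 CPM in 13 of 13 and 37 of 40 cells. Ligands that face T cells were mixed: the co-stimulators Cd86 and Cd80 were at 629.8 and 441.4 CPM and at 62 and 24 CPM, while Lgals9, which encodes galectin-9, was at 23.9 and 102.9 CPM, a ratio of 4.32, in 4 of 13 and 24 of 40 cells. Without the C1q limit the ratio of Lgals9 was 1.55, no longer past 2-fold, and with mature and cycling cells left out 7.35 (1.93 to 62.4, over 2 PBS UMIs).

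Of 18 type 1 markers 5 (27.8%, beside 10.2% of all genes) were higher and 0 lower, with a median log2 ratio of 0.37. These counts and the median include the 3 genes of the rule, Xcr1, Clec9a and Cadm1, at ratios of 0.909, 1.27 and 0.713. Their levels were shaped by the choice of cells, and none of them is among the 5. The median of the list was 0.16 without the 3 cells rich in neutrophil transcripts and 0.98 without the C1q limit. It was -0.10 in cells with both Xcr1 and Clec9a, a choice that again uses members of the list. Irf8 had a ratio of 0.948, Naaa 1.33, Batf3 1.42 and Itgae 0.632. The 5 were Gcsam (42.9 and 166.4 CPM), Plpp1 (28.6 and 86.0 CPM), Clnk, an adaptor of receptor signaling (38.2 and 112.8 CPM), Ifi205 (639.4 and 1486.4 CPM, also in the interferon list) and Sept3 (71.6 and 143.8 CPM). None of the 5 stayed past 2-fold throughout: with mature and cycling cells left out the ratio was 1.99 for Gcsam, 1.53 for Plpp1, 1.78 for Ifi205 and 0.984 for Sept3, and in cells with both Xcr1 and Clec9a it was 1.69 for Clnk. Of 9 conventional dendritic cell markers 0 passed 2-fold, among them Flt3, the receptor of their growth factor, at 186.1 and 279.2 CPM, and Cst3 at 12525.1 and 12260.5 CPM.

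Of 16 transcription factors 2 were higher (12.5%) and 1 lower (6.25%), near the 10.2% and 5.12% of all genes. Zeb2, a factor known from plasmacytoid and type 2 dendritic cells, was at 229.0 and 40.9 CPM, in 7 of 13 and 13 of 40 cells, while Klf4 was at 76.3 and 176.3 CPM and Tcf4 at 38.2 and 93.1 CPM. Neither of these 2 stayed past 2-fold throughout, with Klf4 at a ratio of 1.04 in cells with both Xcr1 and Clec9a and Tcf4 at 1.02 without the C1q limit. Of 8 integrins 0 were higher and 2 lower (25%, beside 5.12% of all genes), with a median log2 ratio of -0.57. They were Itgb7, a chain that pairs with Itgae and Itga4, at 376.9 and 181.9 CPM, and Itgam. The ratio of Itgb7 was 0.514 without the 3 cells rich in neutrophil transcripts, no longer past 2-fold. Itgam, which encodes the CD11b that the exosomes are built to bind, had 20 UMIs in 7 PBS cells and 15 in 10 cmExoaCD11b cells, 95.4 and 21.2 CPM. Of the 20 PBS UMIs 10 lay in PBS cell 12, the richest in S100a8 and S100a9, and without the 3 cells rich in neutrophil transcripts Itgam had too few UMIs for a ratio. It was detected in 53.8% of PBS and 25% of cmExoaCD11b type 1 cells, against 68.9% and 60% of the other class II-high cells and 24.7% and 22% of T cells, whose median depths were lower. After thinning it was found in 0 of 13 (up to 24.7%) and 0 of 40 (up to 8.81%) type 1 cells, against 7.51% and 6.65% of T cells. At this depth the share in type 1 cells could not be told from that in T cells, taken here as background. This background is uneven, as neutrophil markers took 4.18% and 6.64% of the pooled T UMIs but medians of 0.231% and 0.292% per barcode. Itgam was found in 80% and 78.2% of neutrophil barcodes, so mixed barcodes may raise its share in T cells, which was not tested.

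Of 16 receptors, with Xcr1 of the rule among them, 0 were higher and 3 lower (18.8%, beside 5.12% of all genes). The median log2 ratio of the list was -0.43, and -0.03 with free RNA subtracted. The 3 lower genes were the chemokine receptors Ccr1 (18 and 12 UMIs) and Cxcr4 (162.2 and 46.5 CPM) and Tgfbr2, a TGF-beta receptor chain (85.9 and 39.5 CPM). Of the 18 PBS UMIs of Ccr1 10 lay in PBS cell 9, 1 of the cells rich in neutrophil transcripts, and without those cells Ccr1 had too few UMIs for a ratio. The ratio of Cxcr4 was 0.636 in cells with both Xcr1 and Clec9a and that of Tgfbr2 0.55 with free RNA subtracted, neither past 2-fold. In the list of nucleic acid sensing and STING, 4 of 11 were higher (36.4%, beside 10.2% of all genes) and 1 lower (9.09%, beside 5.12%). Tmem173, which encodes STING, the receptor of cGAMP, had 14 and 67 UMIs, 66.8 and 94.5 CPM, and Cgas, which makes cGAMP in cells, 5 and 33 UMIs. The 4 higher genes were Ifih1 and Irf7, both also in the interferon list, Dhx58 (28.6 and 70.5 CPM) and the adaptor Myd88 (76.3 and 159.4 CPM). As the mean of per-cell CPM the ratios of Dhx58 and Myd88 were 1.6 and 1.5. Lrrc8c, a subunit of anion channels that can carry cGAMP, was lower, at 324.5 and 111.4 CPM, a ratio of 0.343 that was 0.549 without the C1q limit.

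Early-response genes had a median log2 ratio of -0.61, with 2 of 18 higher (11.1%, beside 10.2% of all genes) and 3 lower (16.7%, beside 5.12%). The sign of the median turned with the choice of cells: it was 0.65 without the highest Scrublet scores, 0.95 with class II at 1.6% or more and 1.02 with mature and cycling cells left out. Nfkbia, the inhibitor of NF-kB, was at 1250.1 and 489.3 CPM, Ier3 at 305.4 and 104.4 CPM and Ier2 at 291.1 and 122.7 CPM. Without the 3 cells rich in neutrophil transcripts their ratios were 0.818, 0.929 and 0.497 in place of 0.391, 0.342 and 0.422, and the median of the list was -0.05. The heat shock genes Hspa1a and Hspa1b were higher, at 162.2 and 668.4 CPM and at 76.3 and 592.3 CPM, in 4 and 5 of 13 PBS cells and 27 and 27 of 40 cmExoaCD11b cells. Their ratios of 4.12 and 7.76 were not stable, at 1.78 for Hspa1a as the mean of per-cell CPM, at 1.33 for Hspa1b without the C1q limit, and at 60.9 (10.8 to 2418.5) and 33.2 (9.09 to 276.1) with mature and cycling cells left out, over 1 and 2 PBS UMIs. Both encode HSP70, a chaperone that cells make under protein stress. Of 9 interferon-gamma-induced genes 1 was higher (11.1%, beside 10.2% of all genes), Irgm1 (28.6 and 71.9 CPM), with a ratio of 2.51 that was 1.49 with class II at 1.6% or more, and the median was -0.28.

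**Figure D5:**
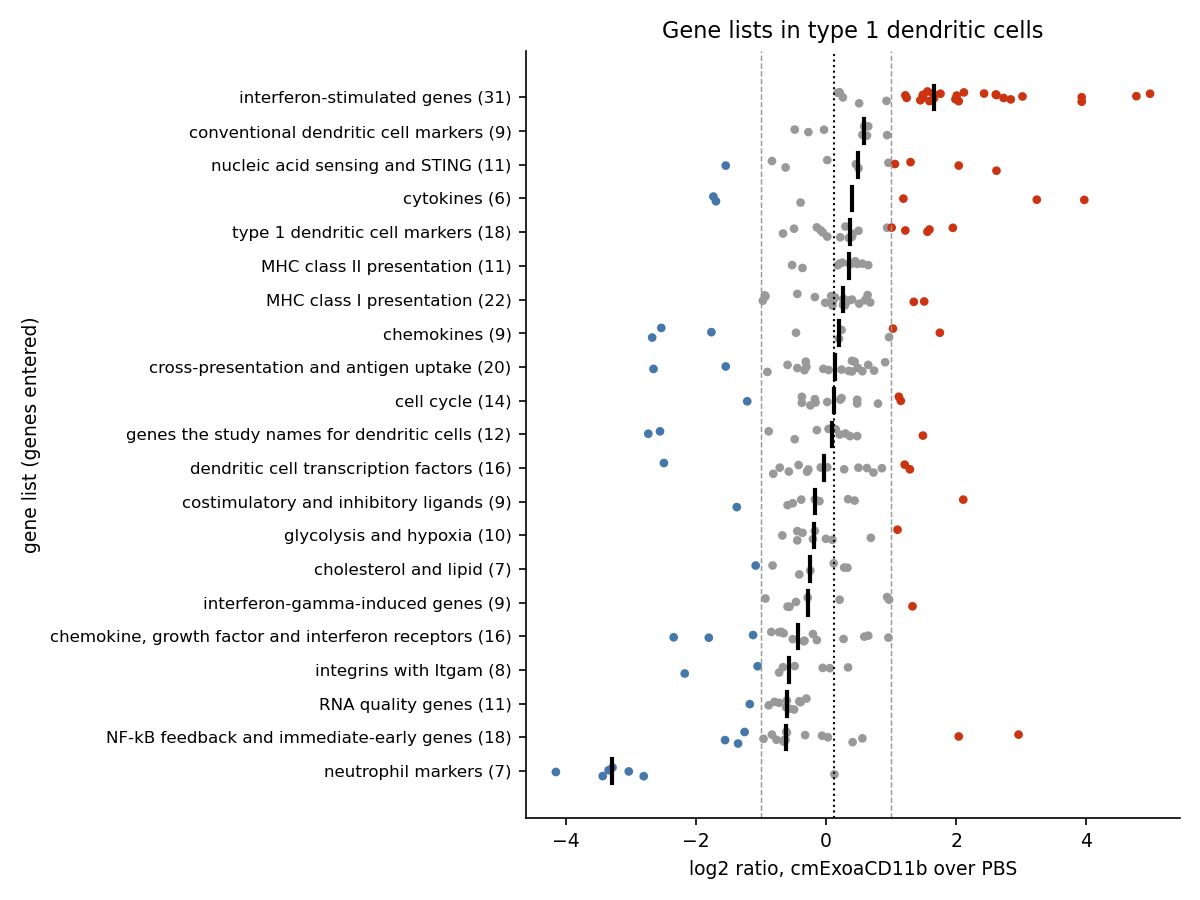
Each point is a gene with at least 30 UMIs, placed by its log2 ratio of CPM, cmExoaCD11b over PBS, in type 1 dendritic cells (x axis); each row is a gene list with the number of its members that entered. Red and blue points are at least 2-fold higher and lower (dashed lines), black bars are list medians and the dotted line is the median over all 4333 genes, 0.12; the interferon-stimulated list lies farthest right at 1.66 and the neutrophil markers farthest left at -3.28.

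Outside the lists, the rule for named genes took the 12 largest and 12 smallest ratios among genes with at least 50 UMIs and no more than 30% of them in 1 cell. P2ry14, a receptor of UDP-sugars, had 6 UMIs in 4 PBS cells and 132 in 34 cmExoaCD11b cells, a ratio of 6.50 (2.91 to 18). Spon1, an extracellular matrix gene, had 0 and 78 UMIs, at least 7.68-fold higher, in 18 cmExoaCD11b cells. The remaining larger ratios outside the lists were those of AW011738, Znfx1, Lsm3 and Pdia5, with 2 or 3 UMIs in PBS and ratios of 9.75 (2.60 to 82.2), 7.24 (1.90 to 61.5), 7.09 (1.86 to 60.3) and 6.90 (2.26 to 34.2). With class II at 1.6% or more Lsm3 was at 0 in PBS and at least 1.9-fold higher, so that its call could not be read there. The smallest ratios ran from 0.179 for Zeb2 to 0.296 for Ccl6. They included Dapk1, a kinase of cell death (233.8 and 45.1 CPM), Sema4d (214.7 and 47.9 CPM), Pik3r1, the regulatory subunit of PI3-kinase (381.7 and 97.3 CPM), Traf3, a brake on non-canonical NF-kB (143.1 and 39.5 CPM), and Plaur, the urokinase receptor (276.7 and 63.5 CPM). The ratio of Plaur was 0.562 in place of 0.229 without the 3 cells rich in neutrophil transcripts and that of Ccl6 0.515 in place of 0.296, neither past 2-fold. The ratio of Pik3r1 was 0.635 with class II at 1.6% or more, and that of Traf3 0.51 without the highest Scrublet scores.

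States within the subset were few. Cells with at least 2 UMIs of Ccr7 and Fscn1, which mark dendritic cells that mature and leave for lymph nodes, numbered 3 of 13 in PBS and 3 of 40 in cmExoaCD11b, and 1 and 0 after thinning to 1000 UMIs. Cells with at least 2 UMIs of the proliferation genes Mki67, Top2a and Stmn1 numbered 4 of 13 and 14 of 40, and 1 (7.69%, 0.195 to 36.0%) and 4 (10.0%, 2.79 to 23.7%) after thinning. The intervals of the libraries overlapped for both states.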

How the data were processed

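Immune cells of pancreatic tumors were sequenced as 2 droplet libraries. The values are raw UMI counts as deposited, one per gene and droplet barcode, from Cell Ranger 7.1.0 per the file headers, with no filter or normalization, so the 644248 PBS and 723594 cmExoaCD11b barcodes (67143628 and 81288480 UMIs) include empty droplets. The genome build is not given in the sources used here. The members and gene lists were chosen with earlier results of these data known.

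Kept barcodes had medians of 3788 and 4817 UMIs. No doublet was removed for the main values. UMIs of a class were summed per library and given as CPM of that class, so deeper cells weigh more. Genes with at least 30 UMIs in the type 1 cells of both libraries together entered. A library at 0 was set at 3 UMIs and the ratio read as a bound. Intervals were Clopper-Pearson for shares, exact Poisson for CPM and exact conditional for ratios, all at 95%. No test was run, with 1 library per treatment. Comparison classes were cut from the same barcodes by fixed limits: C1q-high at 0.5% or more C1q UMIs, B at 3 or more B UMIs, neutrophil at 1% or more of S100a8 and S100a9 with class II under 0.1%. The median T cell was estimated to carry 2.89% and 3.17% free RNA. Named genes were the rule's genes and markers, up to 4 per list, the 12 largest and smallest ratios, the 15 highest and 10 lowest against the other class II-high cells, and genes the study names. Some items are not reported here. The calculation of ratios was checked on simulated data, drawn as independent Poisson counts per gene and library without cells. That check does not cover genes whose UMIs lie in few cells. Python 3.11.15, numpy 2.4.6, scipy 1.17.1, pandas 2.3.3 and scanpy 1.11.5 (Scrublet) were used. Alternatives covered the limits of the rule, depth, scaling, free RNA, doublets and cells left out.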

Additional observations from a re-analysis of the deposited data

Results flagged for a closer look

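For 9 genes the ratio of cmExoaCD11b over PBS was past 2-fold in opposite directions in type 1 dendritic cells and in class II-high cells without type 1 transcripts, and these differences were not tested. Of these, 5 are markers or granule genes of neutrophils: S100a8 had ratios of 0.0562 and 3.98, S100a9 of 0.123 and 4.15, Ngp of 0.0985 and 6.65, Camp of 0.144 and 8.48 and Retnlg of 0.0925 and 2.46. Without PBS cells 9 and 12 and cmExoaCD11b cell 32, the ratio in type 1 cells was 1.28 for S100a8 and 0.987 for S100a9. Chil3, a monocyte and neutrophil gene, had ratios of 0.493 and 17.8, and 33 of its 39 PBS UMIs in type 1 cells lay in PBS cell 12. Plaur, the urokinase receptor, had 0.229 and 2.13, and Hmgcs1, an enzyme of cholesterol synthesis, 0.473 and 2.13, but without those 3 cells Plaur was at 0.562 and Hmgcs1 at 0.735 in type 1 cells, no longer past 2-fold. Tnf ran the other way, at 2.28 (7 and 54 UMIs) in type 1 cells and 0.429 (450 and 263 UMIs) in the other class II-high cells.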

How the results depend on the processing

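The ratio of the type 1 shares was above 1 in all settings run (1.63 to 4.16), and the median log2 ratio of the interferon-stimulated genes stayed between 1.41 and 1.97 in all that gave a value; thinning to 1000 UMIs left too few members. The settings without the C1q limit, with Xcr1 and Clec9a both detected, and without 2 cmExoaCD11b cells were chosen after seeing the data. The shares in PBS and cmExoaCD11b were 0.0869% and 0.211% after thinning, 0.416% and 1.32% of barcodes other than neutrophils, and 21.7% and 35.4% of class II-high barcodes; without the C1q limit PBS was at 0.333%, and with Xcr1 and Clec9a both detected cmExoaCD11b was at 0.281%. Genes higher and lower numbered 14 and 11 after thinning, 785 and 116 with free RNA subtracted, 1006 and 630 from 10 UMIs on, and 104 and 48 from 100 UMIs on; 90 were lower with mature and cycling cells left out and 389 without the C1q limit. Some directions turned, and the cause was not tested. With class II at 1.6% or more, the ratio was 3 for Cxcl2, 2.74 for Ier2, 2.26 for Nfkbia, 2.16 for S100a8 and 4.67 for S100a9, and the neutrophil median log2 ratio was 1.11; Il12b and Top2a, at 0 in PBS there, were at least 4.5-fold and at least 1.85-fold higher. Without the 3 cells over 1% S100a8 and S100a9, the neutrophil median was 0.18, with Cxcl2 at 2.97 and S100a8 at 1.28. Without the highest Scrublet scores it was 0.84, with Cxcl2 at 2.53, Ier2 at 1.58, Nfkbia at 1.54, Top2a (0 in PBS) at least 2.12-fold higher, S100a8 at 1.76 and S100a9 at 3.49. With mature and cycling cells left out it was 1.86, with Sept3 at 0.984, Il12b (0 in PBS) at least 7.45-fold higher, Ier2 at 3.29, Nfkbia at 2.03, S100a8 at 2.83 and S100a9 at 6.71. With at least 3 type 1 UMIs it was 0.09 and S100a9 1.07. With Xcr1 and Clec9a both detected it was 0.09, with Ccl4 at 0.931, Ccl3 at 0.631, Ier2 at 1.71 and S100a9 at 1.06. Without the C1q limit Tnf was at 0.544, with the deepest cell of each library left out Top2a, at 0 in PBS, was at least 3.03-fold higher, and as the mean of per-cell CPM Hmgcs1 was at 1.14. Of 72 named genes past 2-fold, the lowest share stayed past it in the same direction with mature and cycling cells left out, 33 of the 50 that gave a value; 41 of 56 stayed with Xcr1 and Clec9a both detected, 53 of 72 without the C1q limit, 51 of 69 without the highest Scrublet scores (where Ifnb1, under it, was only a bound), 50 of 66 with class II at 1.6% or more (Lsm3 likewise) and 56 of 69 without the 3 cells. No paired analysis was possible because each treatment had 1 library from a different pool of mice.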

Other observations

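Housekeeping programs of the type 1 cells were also compared between the libraries, beside shares of 10.2% higher and 5.12% lower over all genes. Of 14 cell cycle genes 2 were higher, Cks1b (57.3 and 126.9 CPM) and Ccnb2 (6 and 44 UMIs), and 1 was lower, Top2a, with all 24 PBS UMIs in 1 cell and 35 cmExoaCD11b UMIs in 7. Without the 3 cells rich in neutrophil transcripts the ratios of Cks1b and Ccnb2 were 1.77 and 1.75, no longer past 2-fold. With the deepest cell of each library left out Cks1b was at 4.58 and Ccnb2, at 0 in PBS, at least 3.56-fold higher. Of 10 genes of glycolysis and hypoxia 1 was higher, the glucose transporter gene Slc2a1 (8 and 58 UMIs), and of 7 genes of cholesterol and lipid 1 was lower, Hmgcs1 (25 and 40 UMIs). The ratio of Slc2a1, 2.14, was 1.13 without the C1q limit, no longer past 2-fold. It was 10.6 (1.82 to 424.1, over 1 PBS UMI) without the highest Scrublet scores. All 11 genes used as signs of RNA quality had log2 ratios under 0, with a median of -0.60, and the nuclear RNA Malat1 was at 11876.1 and 7846.5 CPM. Of the genes the study names for dendritic cells, S100a4 had 59 UMIs in 5 PBS cells and 34 in 10 cmExoaCD11b cells. Of the other dendritic and myeloid marker lists, 0 of 4 mature dendritic cell markers passed 2-fold, and 1 of 3 monocyte markers, Chil3 (39 and 65 UMIs), was lower, with a list median of -0.65 and of 0.06 without the 3 cells rich in neutrophil transcripts. Of the 39 PBS UMIs of Chil3, 33 lay in PBS cell 12, the richest in S100a8 and S100a9.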
